A study of Drosophila melanogaster
Mus musculus with 36 samples.

Results

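Fly miRNA hairpins with numbers of 2000 and above were followed through periodate oxidation of mixed fly and mouse RNA. The members were all entries named dme-mir-N with N of at least 2000, whatever their letter, copy or arm. This rule uses names only and no counts. It gave 123 entries from 76 hairpins, of 372 fly entries and 2038 entries of both species, and 47 of these hairpins were listed with both arms. The libraries came from total RNA of Drosophila S2-S cells with the genotype DmHen1-KO; FLAG-MYC-AthHEN1, combined with total RNA from the mouse ES (embryonic stem) cell clone AN3-12. All groups shared these cells and differed only in treatment and mixing ratio. At fly to mouse ratios of 1:1, 1:10, 1:100, 1:1000, 1:10000 and 1:100000, a part of each mixture was oxidised with sodium periodate and a part was left untreated, with 3 libraries per group. The fly cells were a cultured line, and the labels state neither whether it is 1 clone nor whether the replicates are separate cultures, so p-values measure only the spread between these libraries.

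miRNA hairpins are numbered in the order in which they were entered in the registry, so high numbers mark late discovery, mostly by deep sequencing. Late-numbered hairpins are often poorly conserved, lie in introns and give few mature products. Their age was not measured here, and they are called late-numbered below. A hairpin is cut into a 5p and a 3p strand, of which 1 is usually loaded into an Argonaute protein and the other is discarded. Plant HEN1 adds a methyl group to the 2'-hydroxyl at the 3' end of small RNAs. Periodate oxidises 3' ends that lack this methyl group, and they are then lost to adapter ligation, which is why oxidation can bring forward the small RNAs of cells that express HEN1.

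Fly miRNA counts per 1:1 library ran from 30479 to 1165619 in oxidised and from 151036 to 1580025 in untreated libraries, and at 1:100 from 6225 to 49529 in oxidised and from 12008 to 178322 in untreated libraries. Replicate 1 was made from another input and on another instrument than replicates 2 and 3, so the replicate set is a batch, and values are given in each library. All 9 entries of a list of S2 cell miRNAs had counts. Their sum at 1:1 was 31.8% to 40.2% of fly counts in oxidised libraries and 55.8% to 66.3% in untreated libraries. A list of 5 miRNAs of other fly cells reached at most 0.000257% of fly counts in oxidised and 0.00260% in untreated 1:1 libraries. Mouse ES cell miRNAs made up 4.89% to 9.54% of mouse counts in oxidised and 64.0% to 66.9% in untreated 1:1 libraries.

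Late-numbered hairpins were sparsely counted, and few gave enough reads for a test. In the 3 oxidised 1:1 libraries together 70 of the 123 members had a count. In the 3 untreated 1:1 libraries 100 had a count, 57 had at least 3, 16 had at least 10, 7 had at least 30 and 3 had at least 100, while 23 were at 0. With counts in every library there were 9 members in the oxidised group and 18 in the untreated group. The most abundant member stood at rank 85 among the fly entries in untreated 1:1 libraries. Of all members, 59 were counted under both treatments, 11 in oxidised libraries only, 41 in untreated libraries only and 12 in neither. The oxidised libraries were shallower. When each 1:1 library was thinned to the 30479 fly counts of the shallowest, 8.79 ± 1.07 members were expected to have a count in oxidised and 8.11 ± 0.74 in untreated libraries (SD, n = 3 each). The lower number of counted members in oxidised libraries was not seen at that depth, which leaves mainly the most abundant members. Thinning therefore cannot tell whether the sparse members were lost on oxidation. Of the members with at least 10 untreated counts, 16 of 16 also had counts after oxidation, against 44 of 45 fly entries of hairpins from mir-927 up to the late-numbered ones, and 92 of 98 in the band below mir-927. Any count enters here, so this does not show that a level was kept. The pooled shares of fly counts of the 16, oxidised over untreated, ran from 0.107 to 3.91.

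The late-numbered hairpins lay mostly inside protein-coding genes. In the gene table of Drosophila Release 6, 65 of 76 hairpins (85.5%) fell within the span of a protein-coding gene, against 41 of 59 (69.5%) in a middle band of fly hairpins, from mir-927 up to the late-numbered ones, and 30 of 79 (38.0%) in the band below mir-927. Strand was not compared. The 16 members with 10 or more untreated counts came from 14 hairpins, each within such a gene. mir-2279 lay in MFS17, mir-2535b in Abca3 beside mir-1007, mir-4939 in CG32833 and mir-9370 in Amun. mir-2489 lay in kuz, which encodes a metalloprotease of the Notch pathway, and mir-2282 in sty, which encodes the receptor tyrosine kinase antagonist Sprouty. mir-4969 lay in CASK, which encodes a scaffold kinase of synapses, beside mir-999. mir-4948 lay in Alp4, mir-2497 in her, mir-4910 in CG3225, mir-4984 in PAPLA1, mir-4943 in CG5953, mir-9371 in Glut4EF and mir-2283 in a stretch shared by CG8176 and Kdm3. Mature functions of these miRNAs are not stated here, and mature sequences were not used.

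As a group the late-numbered hairpins held a small share of fly counts, and the treatments overlapped. At 1:1 their summed level was 434.4, 568.7 and 586.7 fly CPM, that is counts scaled to a fly total of 1000000, in oxidised libraries (529.9 ± 83.2, SD, n = 3), against 415.5, 382.9 and 444.9 in untreated libraries (414.4 ± 31.0, SD, n = 3). The ranges overlapped, since oxidised replicate 1 lay between untreated replicates 1 and 3. At 1:10 the sums were 420.6, 410.1 and 500.4 fly CPM in oxidised and 430.6, 505.9 and 415.2 in untreated libraries. At 1:100 they were 417.3, 573.1 and 535.4 fly CPM in oxidised and 477.5, 416.4 and 431.8 in untreated libraries. The groups overlapped at each of these ratios. Within the pairs of same-numbered libraries the oxidised sum was higher in 3 of 3 at 1:1, in 1 of 3 at 1:10 and in 2 of 3 at 1:100. A sum can hide opposite changes, and here the 2 members with the most counts, dme-mir-2279-5p and dme-mir-2535b-3p, together held 43.5% of untreated member counts at 1:1. Without dme-mir-2279-5p alone the sign at 1:1 turned, with 329.5 ± 55.7 fly CPM in oxidised and 371.0 ± 23.1 in untreated libraries (SD, n = 3 each), a difference of -41.4. Without both, the sums at 1:1 were 291.2 ± 31.9 fly CPM in oxidised and 243.4 ± 16.1 in untreated libraries (SD, n = 3 each). As a share of all counts of both species, the members held 0.0473% in oxidised and 0.0170% in untreated 1:1 libraries. Mouse entries numbered 2000 and above, from the mouse RNA of the mixture, held 0.00353% ± 0.00241 of all counts in oxidised and 0.0325% ± 0.0109 in untreated 1:1 libraries (SD, n = 3 each). Shares of all counts move with the fly fraction, which was 89.1% in oxidised and 40.9% in untreated 1:1 libraries. Per 1000000 mouse counts these mouse entries held 311.0 ± 179.3 in oxidised and 540.7 ± 88.3 in untreated 1:1 libraries (SD, n = 3 each).

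**Figure D1:**
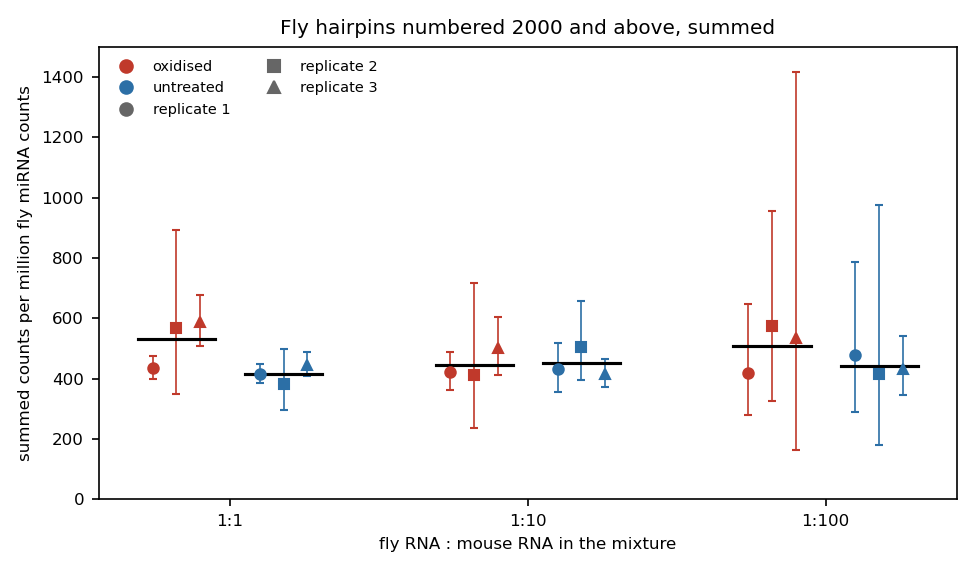
Summed counts of fly hairpins numbered 2000 and above in fly CPM (vertical axis) at fly to mouse ratios of 1:1, 1:10 and 1:100 (horizontal axis), oxidised libraries left of untreated ones. Points are libraries with 95% Wilson intervals for counting error and horizontal bars are means of 3 libraries; the groups overlap at each ratio, with means of 529.9 and 414.4 fly CPM at 1:1.

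dme-mir-2279-5p and dme-mir-2535b-3p moved in opposite directions relative to other fly miRNAs. dme-mir-2279-5p had 155.67, 5.33 and 93.67 counts in oxidised 1:1 libraries, against 48.5, 5.83 and 67.33 in untreated 1:1 libraries. In fly CPM these were 133.5, 175.0 and 292.6 in oxidised and 30.7, 38.6 and 61.1 in untreated libraries. Each oxidised library lay above every untreated one, by 4.35-fold, 4.53-fold and 4.79-fold within replicate sets 1, 2 and 3. In edgeR's quasi-likelihood fit scaled to fly miRNAs, the log2 difference of dme-mir-2279-5p was 1.33 ± 0.44 (SE, adjusted p = 0.00987). This entry passed the filter on low counts only with oxidised libraries, in which it is high. Its calls in the filtered fit therefore give no independent support for a rise. At 1:10 it had 144.5, 205.0 and 234.3 fly CPM in oxidised and 49.0, 57.5 and 65.4 in untreated libraries, again without overlap (log2 difference 1.06 ± 0.45, edgeR adjusted p = 0.0363). At 1:100 the log2 difference was 1.95 ± 0.61 (edgeR adjusted p = 0.00663). The adjustment in this fit includes mouse entries, of which 489 of 491 were called lower at 1:10, so it changes p little. The unadjusted edgeR p of dme-mir-2279-5p was 0.00833 at 1:1 and 0.0317 at 1:10. The counts of this entry were not whole numbers in 18 of the 22 libraries that held it, and whole multiples of a sixth of a read in all 22 (tolerance 1e-06 counts). The sources used here do not say how these fractions arose, and whether reads were divided among several alignments was not examined. The level of this entry is uncertain to that extent. The rise at 1:1 was no longer called without the filter on low counts (adjusted p = 0.0969) or with DESeq2 (adjusted p = 0.0502), and the adjusted p ran from 2.77e-07 to 0.0969 over the 15 alternatives. At 1:10 the call was lost in those 2 fits and when replicate 2 or replicate 3 was left out (log2 difference 1.36 and 1.4), and at 1:100 it was lost without the filter.

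dme-mir-2535b-3p, the most abundant member in untreated libraries, fell relative to other fly miRNAs. It had 32, 2 and 7 counts in oxidised 1:1 libraries, against 250, 15 and 138 in untreated 1:1 libraries. In fly CPM these were 27.5, 65.6 and 21.9 in oxidised and 158.2, 99.3 and 125.1 in untreated libraries. The groups did not overlap, and the value of 65.6 rests on 2 reads. Its log2 difference was -2.88 ± 0.49 at 1:1 (edgeR adjusted p = 4.03e-05), -3.26 ± 0.51 at 1:10 (adjusted p = 1.24e-05) and -4.27 ± 0.82 at 1:100 (adjusted p = 0.000103). At 1:10 it had 12, 0 and 3 counts in oxidised and 31, 18 and 93 in untreated libraries. At 1:100 its counts were 1, 0 and 0 in oxidised and 7, 2 and 27 in untreated libraries. It stayed called in each alternative fit at each of the 3 ratios, with adjusted p between 1.85e-21 and 0.0276. Its log2 difference at 1:1 ran from -3.14 to -1.96 over 15 alternatives, the smallest without oxidised replicate 3.

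Relative to fly miRNAs, 7 members passed the filter on low counts and could be tested. At 1:1, 1 of the 7 was called higher and 2 lower, against 10.4% of fly entries tested called higher and 27.2% called lower. Over all entries of both species 2.11% were called higher and 85.1% lower, and 490 of the 524 lower ones were mouse entries. The median log2 difference was 0.65 over the 7 members and -0.11 over all fly entries tested. The filter works on CPM of the whole library, which shallow oxidised libraries raise. Of the 7 members only dme-mir-2535b-3p passed on untreated libraries alone, so this median is no measure of retention. Without the filter it was -0.29 over the 16 members with at least 10 untreated counts and -0.27 over the 121 members with any count. The filtered fit uses TMM factors of fly entries. With plain fly totals the median of all fly entries moved by 0.75 on the log2 scale, 45 fly entries were called higher and 18 lower in place of 13 and 34, and 2 members were called higher and 2 lower. The other member called at 1:1 was dme-mir-2279-3p, with 6, 0 and 0 counts in oxidised and 29, 2 and 33 in untreated libraries (log2 difference -3.26 ± 0.69, edgeR adjusted p = 0.000331). Without oxidised replicate 3 the difference was -1.98, and it stayed called in each of the 9 alternatives in which it was tested. At 1:10 dme-mir-2279-3p had 4, 0 and 5 counts in oxidised and 4, 2 and 20 in untreated libraries and was not called (adjusted p = 0.0971). At 1:100 it had 1, 1 and 0 counts in oxidised and 0, 0 and 1 in untreated libraries, with a log2 difference of the opposite sign (1.85 ± 1.41, edgeR adjusted p = 0.290). dme-mir-4948-5p had 13, 1 and 7 counts in oxidised and 5, 0 and 6 in untreated 1:1 libraries, with a log2 difference of 1.31 ± 0.62 that missed the threshold (adjusted p = 0.0581). It was called in 9 of 12 alternatives, among them the replicate block (log2 difference 1.24, adjusted p = 0.0414), with adjusted p from 0.00504 to 0.220 over the 12.

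The remaining members tested relative to fly miRNAs were not called. dme-mir-4939-3p had 85, 0 and 15 counts in oxidised and 75, 6 and 19 in untreated 1:1 libraries, and its log2 difference was -0.11 ± 0.72 (edgeR adjusted p = 0.893). The missing reads in oxidised replicate 2 came from a library of 30479 fly counts, in which a count of 0 allows a level of up to 98.4 fly CPM. dme-mir-9370-5p had 33, 1 and 6 counts in oxidised and 13, 2 and 10 in untreated 1:1 libraries (log2 difference 0.65 ± 0.65, edgeR adjusted p = 0.358). dme-mir-4910-5p had 8, 1 and 6 counts in oxidised and 8, 1 and 3 in untreated 1:1 libraries (log2 difference 0.82 ± 0.83, edgeR adjusted p = 0.364). The SEs of 0.65 to 0.83 are large, and a p above the threshold does not show that the levels of these members were equal. At 1:10 and at 1:100 the same 2 members, dme-mir-2279-5p higher and dme-mir-2535b-3p lower, were the called ones of 7. Of the fly entries tested, 13.6% at 1:10 and 19.2% at 1:100 were called higher, and 28.0% and 27.2% were called lower. Of all entries 2.76% at 1:10 and 3.9% at 1:100 were called higher and 85.1% and 84.9% lower. Over 24 tests of whether a member's response to oxidation differed between 1:1 and a more dilute mixture, 0 passed after adjustment (lowest adjusted p = 0.361, edgeR) and 2 had an unadjusted p under 0.05. Both were those of dme-mir-2279-3p, with unadjusted p = 0.0448 for 1:10 (adjusted p = 0.361) and 0.00718 for 1:100 (adjusted p = 0.368).

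**Figure D2:**
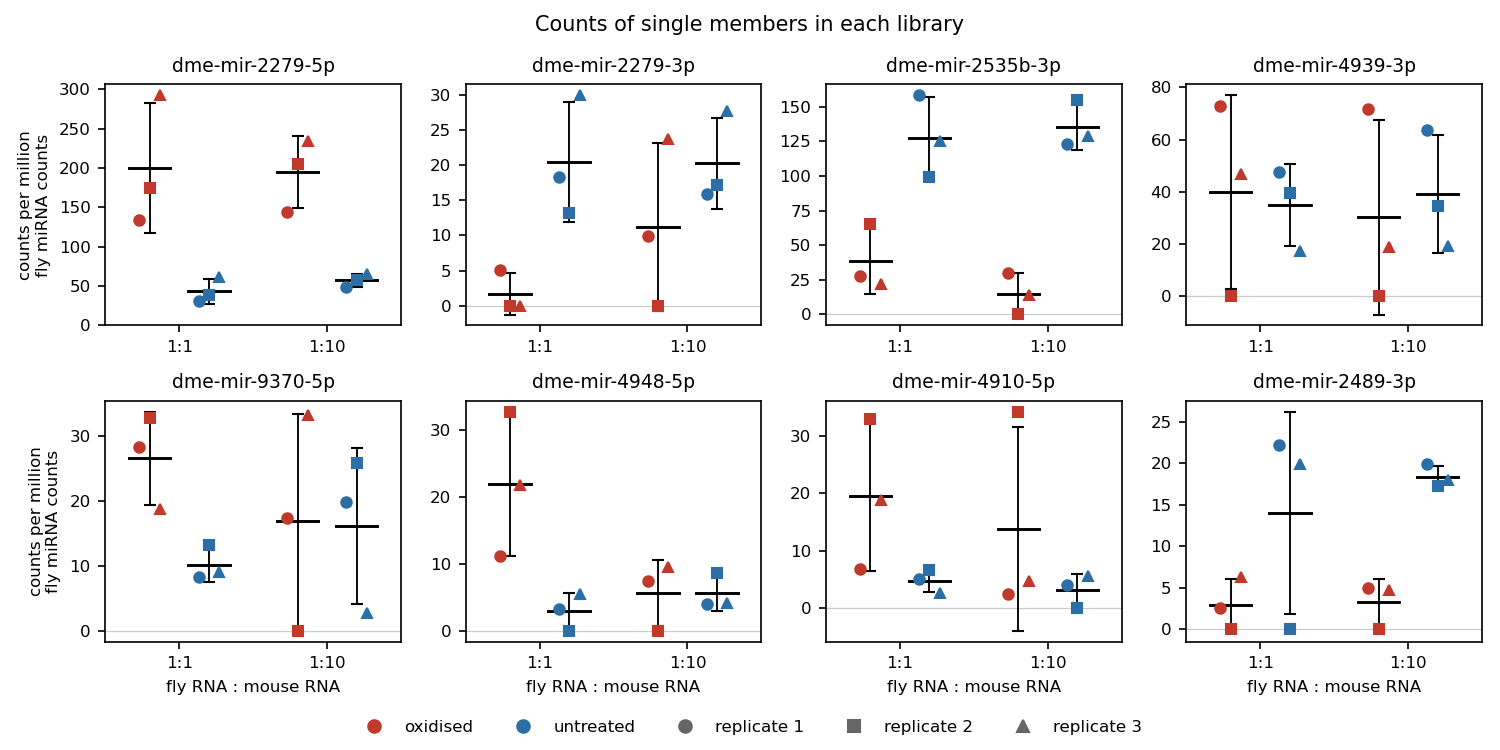
Fly CPM (vertical axis, different range in each panel) of 8 late-numbered entries at fly to mouse ratios of 1:1 and 1:10 (horizontal axis), oxidised libraries left of untreated ones. Points are libraries, with the mean and SD of 3 in black; dme-mir-2279-5p is higher in each oxidised library than in any untreated one at both ratios, and dme-mir-2535b-3p is lower.

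Over the 16 members with at least 10 untreated counts, the response to oxidation spread over more than an order of magnitude. The ratio of pooled shares of fly counts, oxidised over untreated at 1:1, had a median of 1.14, against 0.963 for entries of the middle band and 1.18 for entries below mir-927. It was above 1 for 9 members and below 1 for 7. Exact 95% intervals for counting error lay above 1 for 5 members, below 1 for 4 and held 1 for 7. Above 1 were dme-mir-2279-5p with 3.91 (3.14 to 4.89), dme-mir-4948-5p with 3.57, dme-mir-9370-5p with 2.99, dme-mir-4910-5p with 2.34 and dme-mir-4939-3p with 1.87. Pooling weights replicate 1 most and uses plain fly totals, on which the median fly entry tested lay at 0.64 on the log2 scale. Of the 5 members above 1, the filtered fit with TMM factors of fly entries called only dme-mir-2279-5p higher. The edgeR adjusted p was 0.0581 for dme-mir-4948-5p, 0.358 for dme-mir-9370-5p, 0.364 for dme-mir-4910-5p and 0.893 for dme-mir-4939-3p. Below 1 were dme-mir-2535b-3p with 0.190 (0.134 to 0.263), dme-mir-2279-3p with 0.175, dme-mir-2489-3p with 0.164 and dme-mir-2282-3p with 0.107. dme-mir-2489-3p had 3, 0 and 2 counts in oxidised and 35, 0 and 22 in untreated 1:1 libraries. dme-mir-2282-3p had 0, 0 and 2 counts in oxidised and 14, 3 and 18 in untreated 1:1 libraries. Neither passed the filter on low counts. Without the filter both were called lower relative to fly miRNAs (dme-mir-2489-3p log2 difference -2.85 ± 0.86, edgeR adjusted p = 0.00257; dme-mir-2282-3p -3.51 ± 1.01, adjusted p = 0.00144).

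The remaining members of this group had intervals that held 1. dme-mir-2497-5p had 10, 0 and 4 counts in oxidised and 15, 3 and 12 in untreated 1:1 libraries, a share ratio of 0.872 (0.427 to 1.70). dme-mir-4943-3p had 6, 2 and 4 counts in oxidised and 7, 0 and 12 in untreated libraries, a ratio of 1.18 (0.523 to 2.56). dme-mir-4969-5p had 8, 2 and 2 counts in oxidised and 6, 2 and 9 in untreated libraries, a ratio of 1.32 (0.575 to 2.93). The differences of these entries were not detectable at 1:1 at this depth. At 1:10 dme-mir-2497-5p had 2, 0 and 0 counts in oxidised and 2, 1 and 12 in untreated libraries and was called lower in the unfiltered fit scaled to fly miRNAs (log2 difference -2.50 ± 1.07, edgeR adjusted p = 0.0379). dme-mir-4984-3p had a ratio of 1.2 from 9 oxidised and 14 untreated counts, dme-mir-4948-3p of 1.1 from 10 and 17, and dme-mir-2283-3p of 0.534 from 4 and 14. dme-mir-9371-3p had a single oxidised count against 12 untreated ones, a ratio of 0.156 with an interval of 0.00364 to 1.05. The unfiltered fit scaled to fly miRNAs called dme-mir-9371-3p lower (log2 difference -2.69 ± 1.12, edgeR adjusted p = 0.0370).

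**Figure D3:**
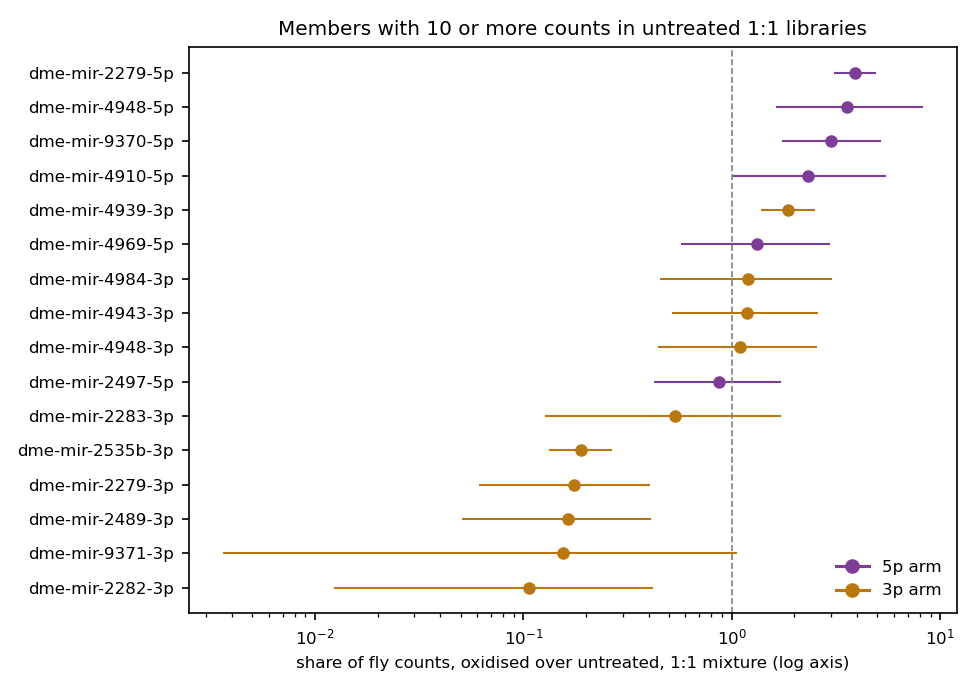
Share of fly counts in oxidised over untreated 1:1 libraries (horizontal log axis, counts pooled over 3 libraries each) for the 16 late-numbered entries with at least 10 untreated counts, coloured by arm. Lines are exact 95% intervals for counting error and the dashed line marks equal shares; the 5p entries lie between 0.872 and 3.91 and the 3p entries between 0.107 and 1.87.

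By arm, the median share ratio was higher for 5p than for 3p entries, and the ranges overlapped. The 6 entries of the 5p arm had share ratios from 0.872 to 3.91 with a median of 2.66, and 5 lay above 1. The 10 entries of the 3p arm had ratios from 0.107 to 1.87 with a median of 0.362, and 4 lay above 1. All 4 intervals below 1 belonged to 3p entries. The other fly entries with at least 10 untreated counts had medians of 1.78 over 62 entries of the 5p arm and 0.816 over 81 of the 3p arm, with the higher median again on the 5p arm. The difference between arms was not tested, nor whether it is larger in late-numbered hairpins, and the ends of the mature strands were not examined.

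In mir-2279 both arms were counted often enough to follow the arm share in each library. At 1:1 the 5p arm held 96.3%, 100% and 100% of mir-2279 counts in oxidised libraries (98.8% ± 2.14, SD, n = 3), against 62.6%, 74.5% and 67.1% in untreated libraries (68.1% ± 6.0, SD, n = 3). At 1:10 the 5p share was 93.6%, 100% and 90.8% in oxidised and 75.5%, 76.9% and 70.3% in untreated libraries. The groups did not overlap at either ratio, with differences of 30.7 and 20.6 percentage points. The exact two-sided permutation test gave p = 0.1 at each ratio, the smallest value that 3 against 3 libraries allow. It treated the libraries as unpaired, although same-numbered ones share a mixture. It was not among the planned tests and adds no support to the values themselves. Pooled at 1:1, the 5p share was 97.7% (95% Wilson interval 95.1% to 98.9%) in oxidised and 65.5% (58.5% to 72.0%) in untreated libraries. At 1:100 at most 1 count of the 3p arm was present per library and the shares could not be compared. The fractional counts of the 5p entry enter these shares, while the 3p counts were whole.

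**Figure D4:**
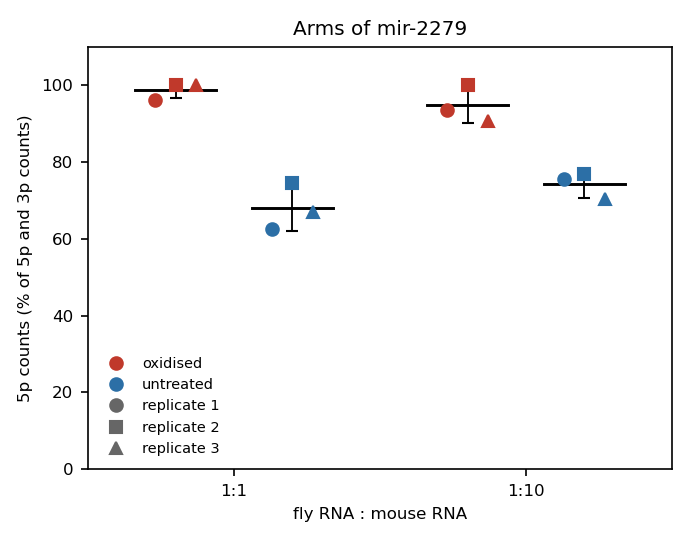
The 5p arm as a percentage of 5p and 3p counts of mir-2279 (vertical axis) at 1:1 and 1:10 (horizontal axis), oxidised libraries left of untreated ones. Points are libraries with the mean and SD of 3 in black; oxidised libraries lie between 90.8% and 100% and untreated ones between 62.6% and 76.9%.

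Arm shares also differed in a few other hairpins, with fewer counts behind them. mir-4948 had 21 counts of the 5p and 10 of the 3p arm in oxidised 1:1 libraries, against 11 and 17 in untreated ones. mir-2282 had 6 of the 5p and 2 of the 3p arm in oxidised libraries, against 4 and 35 in untreated ones, and mir-2283 had 13 and 4 in oxidised libraries, against 7 and 14 in untreated ones. In these 3 hairpins the arm with more pooled counts differed between the treatments, which in each of them rests on replicate 1. Oxidised mir-2282 had 6, 0 and 0 counts of the 5p and 0, 0 and 2 of the 3p arm by library. Oxidised mir-2283 had 11, 0 and 2 of the 5p and 2, 0 and 2 of the 3p arm. Untreated mir-4948 had 5, 0 and 6 of the 5p and 12, 0 and 5 of the 3p arm. mir-9370 kept its 5p arm ahead, with a share of 93.0% in oxidised and 92.6% in untreated libraries, and mir-4939 its 3p arm, with a 5p share of 9.91% in oxidised and 8.26% in untreated libraries. mir-2535b gave almost only its 3p arm, with a 5p share of 4.65% in oxidised and 1.71% in untreated libraries. These arm shares were not tested.

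Relative to mouse miRNAs the tested members were called higher after oxidation at 1:1 and 1:10, as nearly all fly entries tested were. In the fit scaled to mouse miRNAs 5 members passed the filter. The filter works on CPM of the whole library, fly and mouse counts together, so that shallow oxidised libraries help an entry to pass. Of these 5 only dme-mir-2535b-3p passed on untreated libraries alone. The others passed only with oxidised libraries, in which they are high, so their calls give no independent support for retention. The entries that passed are not a sample of all members. At 1:1, 5 of 5 were called higher, against 98.3% of fly entries tested and 21.0% of all entries tested. The log2 difference at 1:1 was 7.86 ± 0.99 for dme-mir-2279-5p, 7.74 ± 1.06 for dme-mir-4910-5p, 7.51 ± 0.89 for dme-mir-9370-5p, 6.81 ± 0.77 for dme-mir-4939-3p and 3.84 ± 0.61 for dme-mir-2535b-3p, with edgeR adjusted p of at most 8.00e-06. The median over fly entries was 6.61, so dme-mir-2535b-3p gained less than the median fly entry and still more than mouse miRNAs. Other scales moved all fly entries together at 1:1, the median by 0.81 with DESeq2 size factors and by -1.86 with total counts of both species, and dme-mir-2535b-3p was 4.73 and 2.02 on these scales and called on both. At 1:10, 5 of 5 were called higher, against 98.3% of fly entries and 21.4% of all entries tested, and dme-mir-2535b-3p had 4.90 ± 0.71 against a fly median of 8.44. At 1:100, 4 of 5 were called higher, against 92.3% of fly entries and 20.3% of all entries tested, and dme-mir-2535b-3p was the exception (3.21 ± 1.84, edgeR adjusted p = 0.214). Of the 4 calls at 1:100, those of dme-mir-4910-5p and dme-mir-9370-5p rest on a single oxidised read each. That of dme-mir-4939-3p rests on 3 reads, all in oxidised replicate 1. The call of dme-mir-9370-5p at 1:100 was lost with the replicate block (adjusted p = 0.0553), with total counts as scale and when replicate 2 or replicate 3 was left out, and that of dme-mir-4910-5p when replicate 2 was left out (adjusted p = 0.0703). Without the filter, 57 of 121 members with any count were called higher at 1:1 and 0 lower, against 62.4% of fly entries tested in that fit, and 14 of the 16 members with at least 10 untreated counts were among the called ones. The other pair, dme-mir-2282-3p (log2 difference 2.88 ± 1.47, adjusted p = 0.347) and dme-mir-9371-3p (3.65 ± 2.13, adjusted p = 0.569), was not called in that fit.

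Members fell on dilution in untreated libraries, as most fly entries did. In untreated 1:10 against untreated 1:1 libraries, relative to mouse miRNAs, 4 of 5 members were called lower, against 67.5% of fly entries tested and 13.9% of all entries tested. The log2 differences ran from -2.93 to -2.58 over the 5 members, and the median over fly entries was -2.95, where a 10-fold lower level is -3.32. The member not called was dme-mir-4910-5p (adjusted p = 0.115, edgeR), which was called with the replicate block (log2 difference -2.80, adjusted p = 0.0325). Leaving out replicate 2 or replicate 3 left 0 members called. With total counts of both species as scale 0 of 5 members were called, and 5 of 117 fly entries in place of 79, while DESeq2 called 1 member.

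Beyond 1:100 few reads of late-numbered hairpins remained. The summed members came to 0, 9 and 14.7 counts in oxidised 1:1000 libraries, against 2, 0 and 4.33 counts in untreated ones. At 1:10000 the sums were 0, 31 and 2.33 counts in oxidised and 0, 0 and 2 in untreated libraries. At 1:100000 they were 0, 2.67 and 0 counts in oxidised and 2, 0 and 0 in untreated libraries. dme-mir-2279-5p was counted in oxidised libraries at each of these 3 ratios, with at most 7.67 counts, and dme-mir-2535b-3p in untreated libraries at each of them, with at most 2 counts. Single members were not tested at these ratios, and these libraries held too few fly counts to measure a level.

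The 107 members with fewer than 10 untreated counts at 1:1 were too sparse to describe singly. Together they had 164.8 counts in oxidised and 253.3 in untreated 1:1 libraries, which is 108.7 and 89.4 fly CPM when pooled, a sum in which replicate 1 weighs most. By library they had 112.1, 65.6 and 100.4 fly CPM in oxidised and 72.8, 119.2 and 109.1 in untreated libraries, which overlapped. Of these members 43 were counted under both treatments, 11 in oxidised libraries only, 41 in untreated libraries only and 12 in neither. The highest oxidised sum among them was 13, that of dme-mir-2283-5p with 7 untreated counts. dme-mir-3643-3p had 9 and dme-mir-4942-3p had 8 untreated counts, both without an oxidised read; these 3 entries were chosen after their values were seen. A count of 0 in the pooled oxidised 1:1 libraries allows a level of up to 1.98 fly CPM by the floor of 3 counts, against pooled untreated levels of 3.18 fly CPM for dme-mir-3643-3p and 2.82 for dme-mir-4942-3p. Over the 105 of these members with any count in the fit, the one without a filter and scaled to fly miRNAs called 1 higher and 6 lower at 1:1, against 0.811% and 13.5% of fly entries tested in that fit.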

How the data were processed

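Per the labels, 18 to 30 nt RNAs of fly and mouse mixtures were sequenced. The deposited files hold expected counts (estimated, possibly fractional, not scaled) per miRNA arm, made by the authors. Tools in the submitters' processing notes are HTSeq 0.6.1p1 and cutadapt 1.2.1, with the builds dm3 and mm10; the aligner is not given in the sources used here. The 257 entries that replicate 1 files do not list, 21 of them members, none above 6 counts elsewhere, were set to 0. Host genes come from a RefSeq table of Release 6, another build, so no coordinates are given. The design text speaks of 2 replicates; 3 sets were analysed, and the unnumbered set was taken as replicate 1.

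Counts were rounded and fitted with edgeR 4.0.16 (R 4.3.3), quasi-likelihood, filterByExpr with minimum count 10 and minimum total 15, p-values adjusted by Benjamini-Hochberg across fly and mouse entries in the fit, threshold 0.05. Libraries were scaled to mouse counts with TMM (all 36 libraries) or to fly counts with TMM (18 libraries of 1:1 to 1:100). The SE of an edgeR log2 difference was calculated back as its absolute value over the square root of the F statistic, and is approximate. The scripts were tested on simulated counts. DESeq2 1.42.0, other scalings, no filter, a replicate block and left-out libraries were tried as alternatives. Single libraries left out of the fly-scaled fit, the thinned counts and the sums without dme-mir-2279-5p or without both leading members were chosen after seeing the data. Intervals (Wilson or exact, 95%) and the floor of 3 counts describe counting error alone. Labels say each mixture was split, so same-numbered libraries of a ratio are pairs; their deviations over the 300 most abundant entries correlated at r above 0.1 in 16 of 18 pairs (median 0.207). No library was a copy of another over 630 pairs (lowest chi-square per degree of freedom 1.82). Named were members with at least 10 untreated counts at 1:1 or passing the filter; exceptions are marked. Members and lists were chosen with earlier results of these data known.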

Additional observations from a re-analysis of the deposited data

Results flagged for a closer look

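The following values lie in mixtures that the tests of single members did not use, above the untreated libraries of the same ratio. dme-mir-2279-5p had 5 counts in oxidised 1:1000 replicate 2 and 7.67 counts in oxidised 1:1000 replicate 3, against at most 0.333 counts in untreated 1:1000 libraries. dme-mir-2489-3p had 4 counts in oxidised 1:1000 replicate 2 and none in untreated 1:1000 libraries. dme-mir-4984-3p had 31 counts in oxidised 1:10000 replicate 2, which is 0.121% of the fly counts of that library. It had no count in any other library of 1:1000 and beyond, and 9 counts in the pooled oxidised 1:1 libraries against 14 in the pooled untreated ones. Each of these values rests on single libraries, and their source was not tested.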

How the results depend on the processing

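Counts of called members changed with filters, scales and left-out libraries, which also changed how many members were tested. Relative to mouse miRNAs the unfiltered fit called 57, 49 and 16 members at 1:1, 1:10 and 1:100 and 21 on dilution; DESeq2 called 8 at 1:10, 10 at 1:100 and 1 on dilution; fits of the 6 libraries of a ratio called 2 at 1:10 and 1 at 1:100; total counts of both species called 0 on dilution. Leaving out replicates or single libraries gave 3 to 14 at 1:1, 3 to 15 at 1:10, 2 to 4 at 1:100 and 0 to 2 on dilution. Relative to fly miRNAs the unfiltered fit called 12, 6 and 1 members at 1:1, 1:10 and 1:100, DESeq2 called 1 at 1:10, and left-out libraries gave 2 to 5 at 1:1 and 1 to 3 at 1:10. The cause was not tested. Members with untreated 1:1 counts numbered 57 with at least 3 counts, 7 with at least 30, and 9 to 16 with a replicate left out. The oxidised minus untreated summed share of 115.5 fly CPM was 302.9 CPM of all counts and 204.7 without dme-mir-2535b-3p, -41.4 without dme-mir-2279-5p, and 80.3 to 163.8 with a replicate left out.

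Besides the sum without dme-mir-2279-5p, these single members changed sign; none was called at that ratio, other than dme-mir-9370-5p relative to mouse, whose call rests on 1 read. dme-mir-4939-3p relative to fly at 1:1 was 0.044 with the replicate block, 0.58 with plain fly totals, 0.014 with fly entries alone, and -0.48 to 0.92 with replicates or libraries left out; with plain fly totals it was 0.082 at 1:10 and 0.21 at 1:100, and -0.012 to 0.028 at 1:10 with a replicate left out. At 1:10 relative to fly, dme-mir-4910-5p was 0.32 with DESeq2, 0.31 with plain fly totals and -0.84 to 1.02 with a replicate left out, dme-mir-4948-5p was -0.015 and dme-mir-9370-5p -0.12 with DESeq2, and the last was -0.64 to 1.03 with a replicate left out. At 1:100 with replicates left out, dme-mir-4948-5p ran from -4.16 to 4.74 and dme-mir-9370-5p from -4.16 to 4.74 relative to fly, both lowest without replicate 2, dme-mir-9370-5p from -1.04 to 8.82 relative to mouse, and dme-mir-2535b-3p from -5.01 (without replicate 1) to 4.53 relative to mouse. The replicate block changed no call other than those named. For 3 alternatives no value could be given, 1 because DESeq2 gave no adjusted p. Depth limits all statements: a count of 0 in the shallowest oxidised 1:1 library allows a level of up to 98.4 fly CPM.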
